A study of Mus musculus with 33 samples.

Results

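Keratins are the intermediate filament proteins of epithelial cells, and the 10 described here are those most often used to tell the cell layers of the mammary duct apart. They were taken by symbol from the 55487 genes of the deposited count table: Krt5, Krt14, Krt15, Krt17 and Krt6a as basal keratins, and Krt7, Krt8, Krt18, Krt19 and Krt23 as luminal keratins. All 10 were present and all 10 passed the filter on low counts. The rule uses their names and lineage.

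A keratin filament is built from pairs of a type I and a type II chain. Basal and myoepithelial cells of the duct classically pair Krt14, of type I, with Krt5, of type II, while luminal cells pair Krt18 with Krt8. Krt17 and Krt6a are known from basal layers of stratified epithelia and from wound edges, Krt15 from resting basal cells of the skin, Krt7 and Krt19 from simple ductal epithelium, and Krt23 from glandular epithelium, with a role that is less settled.

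The RNA came from mammary cells of FVB mice that carried MMTV-Cre, a transgene driving recombination in mammary epithelium, and the mTmG reporter, which turns a recombined cell green. Green cells had been sorted after a short culture in serum. PTHrP WT mice had the intact gene for parathyroid hormone-related protein (genotype Pthrp wt/wt; Cre+) and PTHrP KO mice the floxed gene (Pthrp flox/flox; Cre+), so that KO means loss in the recombined cells and not in the whole mouse. Tumors came from mice that also carried MMTV-PyMT, a viral oncogene expressed in mammary epithelium, and tumor-free glands from mice without it. There were 33 libraries: WT tumors of 6, 8 and 10 weeks (n = 3 each) and of 12 weeks (n = 1), KO tumors of 8, 10 and 12 weeks (n = 3 each), WT glands of 6, 8, 10 and 12 weeks (n = 2 each) and KO glands of 8, 10 and 12 weeks (n = 2 each). Each library is bulk RNA of the sorted cells of 1 biological replicate, so fewer cells of a type and less RNA per cell cannot be told apart in anything that follows.

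Counted reads ran from 28419983 to 130981596 per library (median 46351179), and all keratins but Krt15 and Krt23 had at least 429 reads in every library. Ribosomal RNA genes took more than 1% of the reads in 8 libraries, all of them KO (4 glands, 4.35% to 18.8%, and 4 tumors, 2.06% to 12.0%), against at most 0.447% in the WT libraries. With that share as a covariate, as without it, edgeR called 0 of the 10 keratins in each of the 3 comparisons of genotypes given further on. Pthlh, the gene for PTHrP, was at 1.46 to 6.67 CPM (read counts scaled to a common library size) in WT tumors and at 1.35 to 2.29 in KO tumors, and at 2.93 to 7.73 in WT glands and 2.79 to 8.52 in KO glands. The count covers exons outside the floxed one, so it does not check the genotype labels.

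The 10 genes lie in 2 clusters of the mouse genome (GRCm38). The type II genes are on chromosome 15, Krt7 at chr15:101411043-101430313, Krt6a at chr15:101689910-101694307, Krt5 at chr15:101707070-101712898 and Krt8 at chr15:101996698-102004482, and Krt18, the only type I gene outside its cluster, begins 23697 bases from Krt8 at chr15:102028180-102032027. The other type I genes are on chromosome 11, Krt23 at chr11:99477974-99493137, Krt15 at chr11:100131758-100135928, Krt19 at chr11:100140810-100148665, Krt14 at chr11:100203162-100207548 and Krt17 at chr11:100256217-100261029. Krt8 and Krt18 are neighbours on opposite strands whose levels went together across libraries, and Krt5 is the well-read basal gene with the largest fall in tumors, both as given further on. RefSeq bases just before the start of these 3 genes (GRCm38.p6) are shown for that reason, with capitals where the motifs searched on both strands were found. The motifs were TATAA with its variant ATAAAA, the core letters CATG of sites for the p63 family of the p63 family, and the box GGGCGG, all chosen after the sequences were seen.
Krt5, chr15:101712906-101713055, minus strand: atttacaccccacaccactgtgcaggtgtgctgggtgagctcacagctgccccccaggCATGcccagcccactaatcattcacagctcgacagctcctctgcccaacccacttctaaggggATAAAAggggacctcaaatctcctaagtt
Krt8, chr15:102004483-102004592, minus strand: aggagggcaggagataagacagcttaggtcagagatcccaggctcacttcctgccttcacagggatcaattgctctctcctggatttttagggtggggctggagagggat
Krt18, chr15:102028030-102028179, plus strand: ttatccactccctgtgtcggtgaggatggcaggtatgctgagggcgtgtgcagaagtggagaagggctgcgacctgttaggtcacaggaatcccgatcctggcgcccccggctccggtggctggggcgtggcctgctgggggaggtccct
In the Krt5 bases ATAAAA stood at -29 and CATG at -92 from the RefSeq start, and no motif fell in the Krt8 or Krt18 bases shown. The RefSeq window of Krt18 held TATAA at -19 from its RefSeq start, in bases not shown because they lie inside the GENCODE gene. Of 32851 RefSeq promoter windows of 250 bases, 17% held the motif ATAAAA and 22.8% held TATAA, while 53.9% held CATG and 32.7% held the box GGGCGG, so a match is common and is given as a description of the letters only.

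Ordered by their level per kilobase of the longest coding transcript, the luminal pair led in both tissues. In the 19 tumors the median of Krt18 was 2012 CPM per kb and that of Krt8 was 1662, with Krt18 above Krt8 in 19 of 19 libraries. Krt17 (603), Krt14 (499) and Krt7 (452) followed, and neighbours among these 3 were not separated: Krt17 was above Krt14 in 15 of 19 libraries and Krt14 above Krt7 in 11 of 19. A clear step came after Krt7, whose lowest tumor was above the highest of Krt19 (median 98.1). Krt5 (73.6), Krt6a (20.3), Krt23 (0.786) and Krt15 (0.0698) closed the order.

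The order differed in the 14 glands mainly in the place of Krt5. Its median there was 532 CPM per kb, above that of Krt7 (420) in 10 of 14 libraries and below that of Krt14 (800) in 13 of 14. Krt8 (1809) and Krt18 (1732) were not separated, Krt8 being the higher in 5 of 14 glands, and Krt17 had a median of 949. Krt19 (260), Krt6a (71.8), Krt23 (4.56) and Krt15 (0.301) closed the order. Krt7 has 5 annotated transcripts, of which the longest coding one (4094 bases) was used, so its level per kb is uncertain.

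Krt5, the type II basal chain, showed the widest step between gland and tumor of the well-read keratins. Its level in WT glands ran from 440 to 2112 CPM (median 1048, n = 8) and in WT tumors from 22.3 to 432 (median 144, n = 10). In KO glands it ran from 777 to 2423 CPM (median 1322, n = 6) and in KO tumors from 84.2 to 396 (median 165, n = 9). All 10 WT tumors were below all 8 WT glands, and all 9 KO tumors were below all 6 KO glands; 2.25% and 1.44% of the genes tested were separated in this way in WT and KO libraries. With edgeR's quasi-likelihood test, averaged over the ages both tissues share, Krt5 fell by 2.84 ± 0.40 (SE) on the log2 scale in WT tumors, which is 7.16-fold (adjusted p = 7.21e-06), and by 3.01 ± 0.40 in KO tumors, which is 8.05-fold (adjusted p = 5.94e-06).

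Krt14, its usual type I partner, moved less. WT glands held 804 to 2371 CPM (median 1258) and WT tumors 353 to 1402 (median 860), while KO glands held 987 to 2003 (median 1365) and KO tumors 385 to 1017 (median 848). Only 5 of 10 WT tumors were below every WT gland, and 8 of 9 KO tumors were below every KO gland. Krt14 fell by 0.71 ± 0.20 on the log2 scale in WT tumors (1.64-fold, edgeR adjusted p = 0.0148) and by 1.01 ± 0.20 in KO tumors (2.01-fold, adjusted p = 0.000915). The WT call was lost without replicate 1 of the WT glands of 10 weeks (-0.45, adjusted p = 0.147) and, on its fold change, without replicate 1 of the WT glands of 8 weeks (-0.54, adjusted p = 0.0931).

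**Figure D1:**
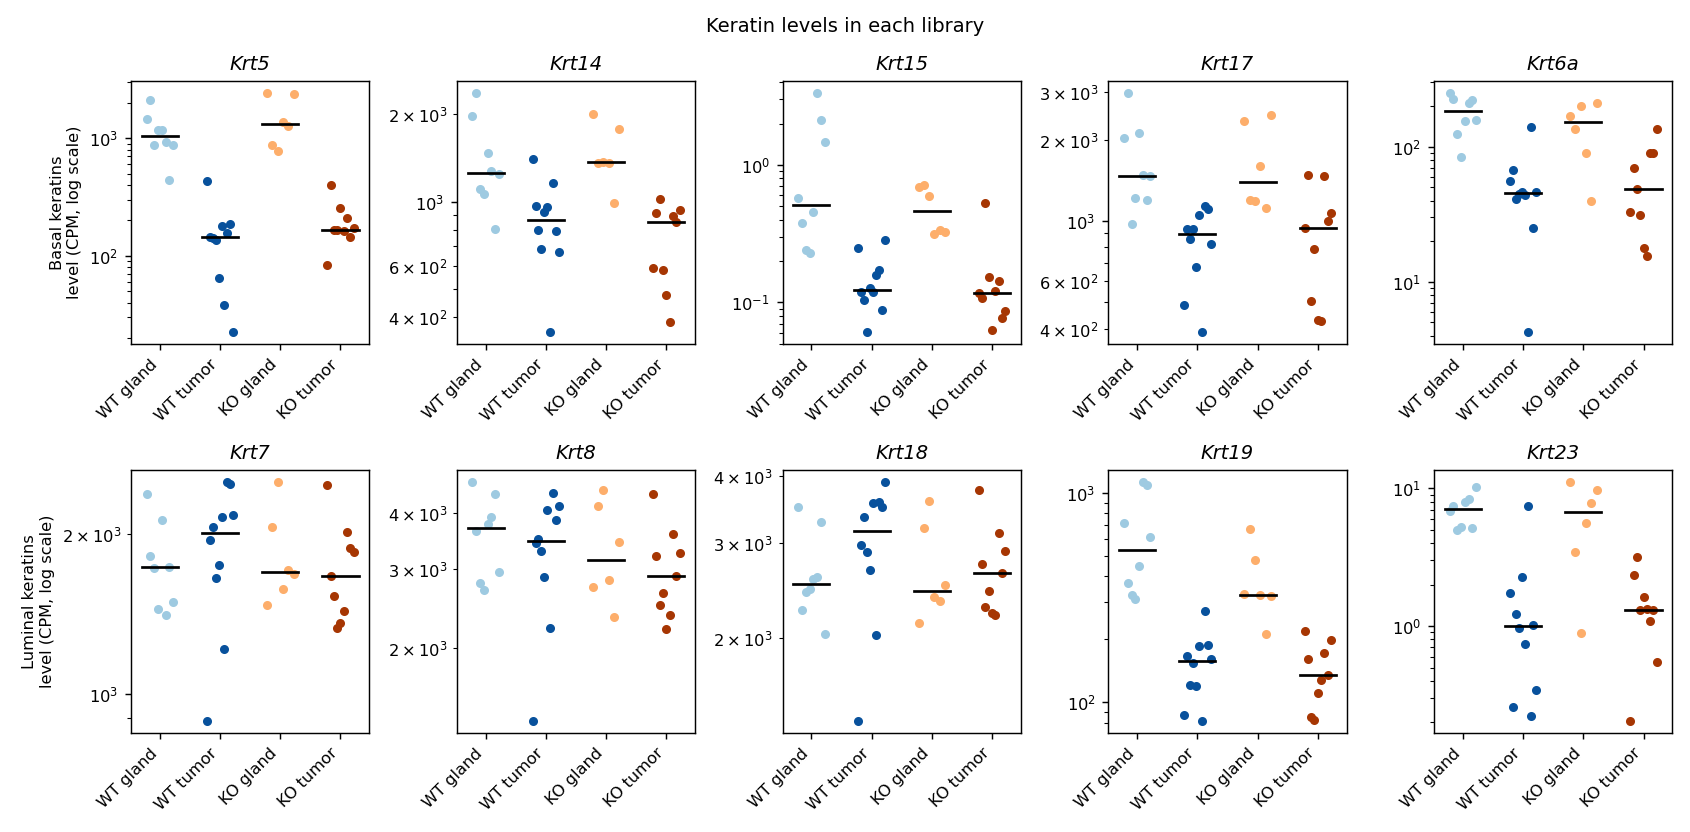
Level of each of the 10 keratins in each of the 33 libraries, in CPM on a log axis, by class (WT gland, WT tumor, KO gland, KO tumor), with 1 point per library and a bar at the class median. For Krt5 the highest WT tumor (432) lies just below the lowest WT gland (440), whereas the classes of Krt7, Krt8 and Krt18 lie at the same height.

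The other basal keratins were also lower in tumors. Krt17, a type I chain, had medians of 1472 CPM in WT glands and 896 in WT tumors, and of 1396 in KO glands and 945 in KO tumors, and it fell by 1.08 ± 0.25 (2.12-fold, edgeR adjusted p = 0.00235) and by 0.89 ± 0.25 (1.86-fold, adjusted p = 0.0145) on the log2 scale. Its KO call was lost without replicate 2 of the KO glands of 10 weeks (-0.69, adjusted p = 0.104) or replicate 1 of those of 12 weeks (-0.69, adjusted p = 0.101). Krt6a, a type II chain, ran from 84.4 to 250 CPM in WT glands against 4.22 to 139 in WT tumors, and from 39.7 to 212 in KO glands against 15.6 to 135 in KO tumors. Most WT tumors (9 of 10) were below all WT glands but only 4 of 9 KO tumors were below all KO glands. Krt6a fell by 1.85 ± 0.30 in WT tumors (3.6-fold, edgeR adjusted p = 4.18e-05) and by 1.32 ± 0.30 in KO tumors (2.49-fold, adjusted p = 0.00245). Of its transcript's 50-base windows 62% also occur in transcripts of other genes, most of them Krt6b (43.6%), so its count may hold or lose reads of that copy.

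Krt15 was at the edge of detection. It had 3 to 25 reads per tumor and 7 to 165 per gland, or medians of 0.511 CPM in WT glands, 0.123 in WT tumors, 0.464 in KO glands and 0.117 in KO tumors. The fitted differences were -3.22 ± 0.42 in WT mice (edgeR adjusted p = 2.49e-06) and -1.77 ± 0.46 in KO mice (adjusted p = 0.00793) on the log2 scale. The WT glands were uneven, with 1.46, 2.13 and 3.33 CPM in those with the most and 0.229 to 0.57 in the other 5. These 3 glands, replicates 2 of 6, 10 and 8 weeks, were also the WT glands with the most RNA of fibroblast genes other than Postn (240, 64.1 and 765 CPM). Over all 14 glands Krt15 also went with Krt19 (r = 0.862, its largest with any member, and -0.328 in tumors), given without a test. The part of fibroblast and endothelial genes in the Krt15 values was not tested. The gland of 8 weeks also had the largest sum of the endothelial list (90.4 CPM), in which Flt1 and Eng had the highest levels. Without that gland the WT difference of Krt15 was -2.46 (edgeR adjusted p = 5.27e-05).

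The luminal keratins split into 2 sets. For Krt8, Krt18 and Krt7 no difference between tumors and glands passed the test. Krt8 had medians of 3707 CPM in WT glands and 3469 in WT tumors, and of 3141 in KO glands and 2898 in KO tumors, with differences of -0.18 ± 0.17 (edgeR adjusted p = 0.539) and -0.14 ± 0.17 (adjusted p = 0.804). Krt18, its partner, had medians of 2521 and 3161 CPM in WT glands and tumors and of 2446 and 2646 in KO glands and tumors, with differences of 0.21 ± 0.16 (adjusted p = 0.425) and 0.01 ± 0.16 (adjusted p = 1.00). Krt7, the second simple type II chain, gave 0.09 ± 0.16 (adjusted p = 0.823) and -0.09 ± 0.16 (adjusted p = 0.960). The ranges of tumors and glands overlapped for all 3 genes in both genotypes.

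Krt19 and Krt23, counted as luminal, fell in tumors as the basal keratins did. Krt19, a small type I chain that lacks the usual tail, ran from 311 to 1132 CPM in WT glands (median 532) and from 81.3 to 273 in WT tumors (median 158), and from 212 to 673 in KO glands (median 327) and 82.2 to 218 in KO tumors (median 135). All 10 WT tumors were below all WT glands, and 8 of 9 KO tumors were below all KO glands. Krt19 fell by 2.18 ± 0.24 on the log2 scale in WT tumors (4.52-fold, edgeR adjusted p = 1.50e-07) and by 1.41 ± 0.23 in KO tumors (2.65-fold, adjusted p = 9.26e-05). Krt23 ran from 5.02 to 10.2 CPM in WT glands and from 0.222 to 7.51 in WT tumors, and from 0.886 to 11.2 in KO glands and 0.204 to 3.19 in KO tumors. It fell by 3.05 ± 0.48 in WT tumors (8.27-fold, adjusted p = 3.36e-05) and by 2.21 ± 0.47 in KO tumors (4.63-fold, adjusted p = 0.00148), from as few as 11 reads in a tumor.

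By lineage, then, 5 of 5 basal and 2 of 5 luminal keratins were lower in WT tumors, and the same counts held in KO tumors, with none higher. A call required a fold change over 1.5 and an adjusted p under 0.1. Of the 36527 genes tested, 15.7% were called in the WT comparison (9.53% lower) and 10.6% in the KO comparison (5.44% lower). The median log2 difference between WT tumors and glands was -1.85 for the basal keratins, -0.18 for the luminal keratins and 0.03 for all genes. Between KO tumors and glands the medians were -1.32, -0.14 and 0.09.

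**Figure D2:**
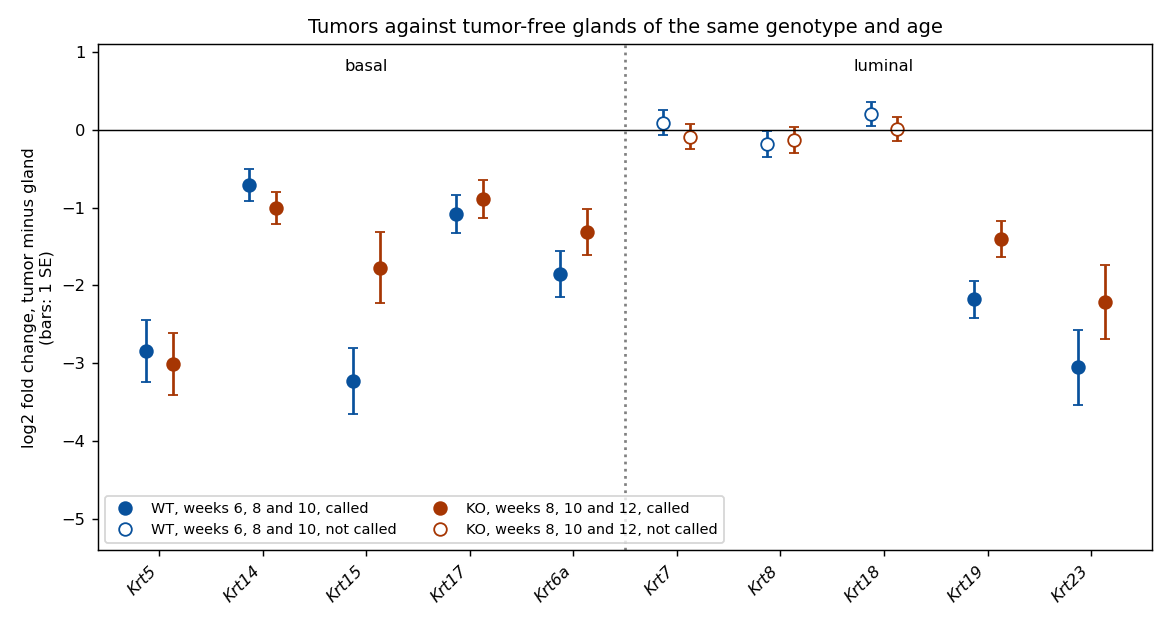
Log2 difference between tumor and gland for each keratin in WT mice (mean of weeks 6, 8 and 10) and KO mice (mean of weeks 8, 10 and 12) from edgeR, with bars of 1 SE on each side. Krt7, Krt8 and Krt18 lie near 0 in both genotypes, Krt14 and Krt17 lie near -1, and Krt5, Krt15, Krt19 and Krt23 reach the lowest values.

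Because Krt14 and Krt5 are usual partners, their ratio was taken within each library, where library scaling cancels. In WT glands there were 0.914 to 1.83 Krt14 reads for each Krt5 read, and in KO glands 0.755 to 1.76. In WT tumors the ratio was 4.24 to 7.39 at 6 weeks, 4.97 to 14.1 at 8 weeks, 3.25 to 29.9 at 10 weeks and 9.19 in the single tumor of 12 weeks. In KO tumors it was 1.85 to 2.38 at 8 weeks, 4.24 to 5.88 at 10 weeks and 3.52 to 7.01 at 12 weeks. Every tumor had more Krt14 per Krt5 than every gland of its genotype. The mean log2 ratio was 2.86 ± 0.93 (SD, n = 10) in WT tumors and 0.37 ± 0.29 (n = 8) in WT glands, a 5.59-fold difference (exact permutation test, two-sided, adjusted p = 0.000411), and 1.96 ± 0.71 (n = 9) in KO tumors and 0.07 ± 0.53 (n = 6) in KO glands, a 3.73-fold difference (exact permutation test, adjusted p = 0.0012).

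The levels of both genes by age follow. In the WT tumors Krt5 was at 179, 157 and 187 CPM at 6 weeks, at 142, 137 and 65.2 at 8 weeks, at 432, 145 and 22.3 at 10 weeks and at 38.4 at 12 weeks. In the same libraries Krt14 was at 955, 1159 and 794 CPM at 6 weeks, at 800, 683 and 921 at 8 weeks, at 1402, 965 and 668 at 10 weeks and at 353 at 12 weeks. The tumor with the least Krt5 (replicate 3 of 10 weeks) still had a Krt14 level close to that of the lowest 8-week tumor.
In the KO tumors Krt5 was at 396, 257 and 162 CPM at 8 weeks, at 210, 144 and 171 at 10 weeks and at 84.2, 165 and 164 at 12 weeks. Krt14 in those libraries was at 910, 477 and 385 CPM, at 888, 848 and 933 and at 591, 1017 and 579. Replicates 1 and 2 of the KO tumors of 8 weeks had the most Krt5 of the KO tumors and replicates 2 and 3 the least Krt14, and all 3 had lower ratios than any other tumor.

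Krt19 departed from Krt8 in the same way within the luminal set. The mean log2 ratio of Krt19 to Krt8 was -4.45 ± 0.29 in WT tumors and -2.67 ± 0.57 in WT glands, a 3.44-fold lower ratio (exact permutation test, adjusted p = 0.000411), and -4.43 ± 0.31 in KO tumors and -3.16 ± 0.31 in KO glands, a 2.43-fold lower ratio (exact permutation test, adjusted p = 0.0012). All 10 WT tumors and all 9 KO tumors were below all glands of their genotype. For Krt23 to Krt8 the differences were -2.70 (exact permutation test, adjusted p = 0.00347) and -1.97 (adjusted p = 0.0399) on the log2 scale, with 8 of 10 WT but only 2 of 9 KO tumors below all glands.

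Krt8 and Krt18 stayed close to each other, with a small shift. Their log2 ratio was 0.14 ± 0.09 in WT tumors and 0.44 ± 0.19 in WT glands (difference -0.30, exact permutation test, adjusted p = 0.00226), and 0.14 ± 0.07 in KO tumors and 0.29 ± 0.16 in KO glands (difference -0.15, exact permutation test, adjusted p = 0.0399). Of the windows of the Krt8 transcript 29.7% also occur in other transcripts, mostly a Krt8 pseudogene (26.9%), against 0.72% for Krt18. Krt7 to Krt8 was higher in WT tumors by 0.22 (exact permutation test, adjusted p = 0.0476) and gave 0.05 in KO mice (adjusted p = 0.608). The WT call of Krt7 to Krt8 was lost under alternatives given further on.
Within the basal set, Krt17 was not shown to depart from Krt14: the tumor minus gland difference of their log2 ratio was -0.28 in WT mice (exact permutation test, adjusted p = 0.270) and 0.10 in KO mice (adjusted p = 0.685). Krt6a to Krt14 was lower in WT tumors by 2.63-fold (exact permutation test, adjusted p = 0.0012) and gave -0.36 on the log2 scale in KO mice (adjusted p = 0.375). For Krt15 to Krt5 the values were 0.81 (exact permutation test, adjusted p = 0.375) and 1.04 (adjusted p = 0.125). In all, 9 ratios were tested in each genotype, and no ratio was compared between genotypes.

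**Figure D3:**
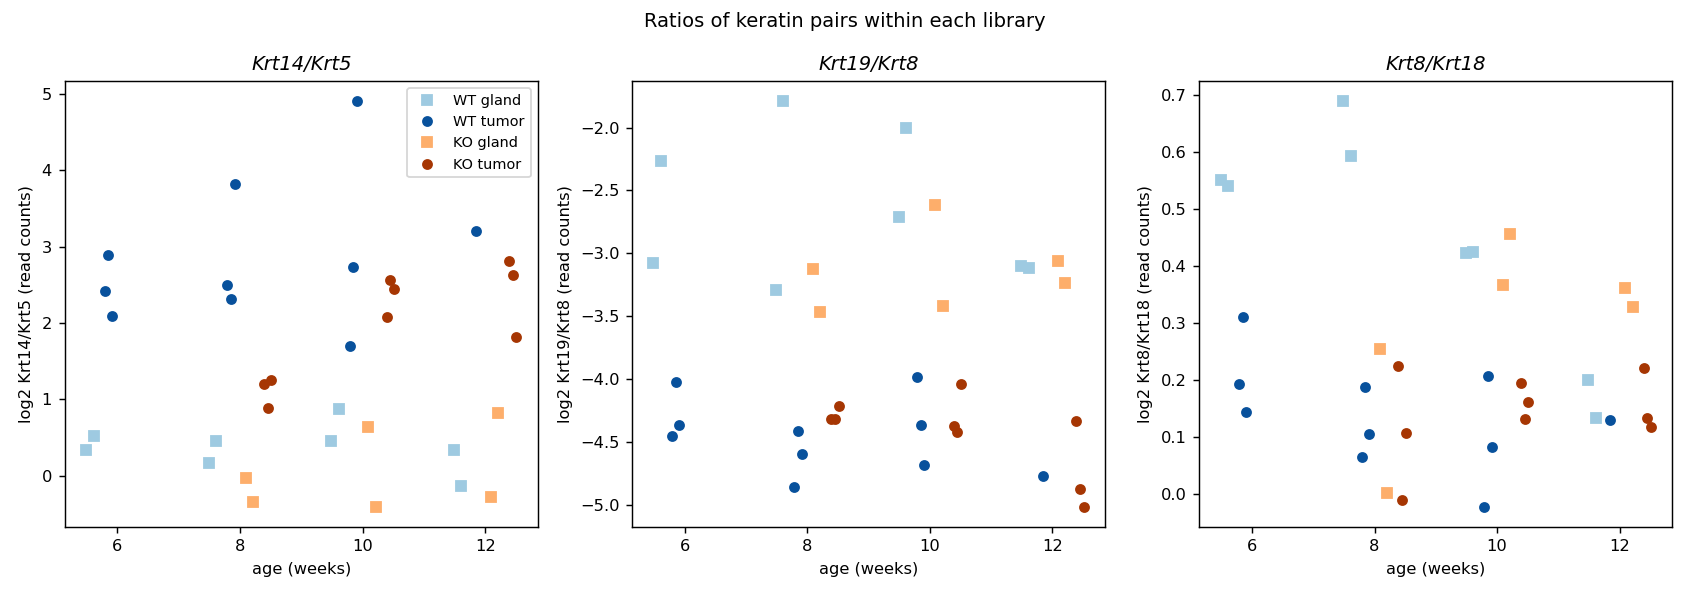
Log2 ratios of raw counts within each library, for Krt14 to Krt5, Krt19 to Krt8 and Krt8 to Krt18, against age in weeks and by class. Tumors lie above glands at every age for Krt14 to Krt5, below them for Krt19 to Krt8, and within about 1 log2 unit of 0 for Krt8 to Krt18.

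The balance of basal to luminal keratin moved with these changes. The geometric mean of Krt5 and Krt14 over that of Krt8 and Krt18 was 3.82-fold lower in WT tumors than in WT glands (exact permutation test, adjusted p = 0.00212, 9 of 10 tumors below all glands) and 3.79-fold lower in KO tumors than in KO glands (exact permutation test, adjusted p = 0.0012, 9 of 9). Of the summed level per kb of the 10 genes, basal keratins made up a median of 35.4% in WT glands (21.5% to 51.5%) and 20.6% in WT tumors (14.1% to 41.1%), and 38.1% in KO glands (26.1% to 52.8%) and 23.7% in KO tumors (15.3% to 29.5%). Krt5 alone went from a median of 7.24% to 1.14% in WT libraries and from 10.5% to 1.71% in KO libraries, Krt14 from 11.8% to 8.35% and from 12.0% to 8.42%. The ratio of summed type I to type II level per kb had medians of 1.44 in WT glands, 1.43 in WT tumors, 1.38 in KO glands and 1.47 in KO tumors, so the sums of the 2 types kept about the same proportion while Krt14 and Krt5 did not. These shares are descriptions and were not tested.

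Single ages compared 3 tumors with 2 glands. In WT mice 4 of 10 were lower at 6 weeks (Krt5, Krt15, Krt19, Krt23, where 5.86% of all genes were called, 3.53% lower), 7 at 8 weeks (9.19%, 5.84% lower) and 5 at 10 weeks (Krt5, Krt15, Krt6a, Krt19, Krt23, 6.13%, 3.67% lower). In KO mice 1 was lower at 8 weeks (Krt5, 2.49%, 1.38% lower), 3 at 10 weeks (Krt5, Krt19, Krt23, 5.66%, 3.09% lower) and 4 at 12 weeks (Krt5, Krt14, Krt6a, Krt19, 6.11%, 2.92% lower). Krt5 was called at each of the 6 ages and genotypes, with log2 differences of -2.55, -3.73 and -2.24 among WT libraries of increasing age and of -2.28, -3.21 and -3.54 among KO libraries. Krt14 gave -0.49, -1.19 and -0.46 among WT libraries and -0.99, -0.82 and -1.21 among KO libraries, of which the WT value of 8 weeks and the KO value of 12 weeks passed.
These counts rested on single libraries. The WT count of 6 weeks was 1 without tumor replicate 1 or gland replicate 2 and 2 without gland replicate 1, that of 8 weeks was 4 without gland replicate 1, and that of 10 weeks was 2 without gland replicate 1 or tumor replicate 2. The KO count of 8 weeks was 4 without tumor replicate 1 and 0 without any other of its libraries, and that of 10 weeks was 1 without gland replicate 2 or tumor replicate 2. Without replicate 1 of the WT glands of 10 weeks, Krt14 at that age changed sign, from -0.46 to 0.33 (adjusted p = 0.795), and Krt23 in KO mice at 12 weeks did so without replicate 1 of the KO glands, from -1.98 to 0.80.

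Loss of PTHrP was compared in tumors and in glands of the same ages. In tumors of 8 and 10 weeks, 0 of 10 keratins were called between WT and KO with edgeR, 0 had an unadjusted p under 0.05 and DESeq2 called 0, where 0.512% of all genes were called. Krt5 was at -0.53 ± 0.43 (WT minus KO, adjusted p = 0.692) and Krt14 at 0.31 ± 0.23 (adjusted p = 0.646) on the log2 scale, which does not show that the genotypes were alike. In glands of 8, 10 and 12 weeks, 0 were called with edgeR and 0 with DESeq2 (0.906% of all genes), and 1 had an unadjusted p under 0.05: Krt19, higher in WT by 0.67 ± 0.26 but with an adjusted p of 0.275. Without replicate 1 of the WT glands of 8 weeks, Krt19 was called (0.87 ± 0.25, adjusted p = 0.0991).
The size of the tumor difference was compared between genotypes directly, at 8 and 10 weeks. No keratin passed (0 of 10 with edgeR, 0 with DESeq2, 0.00548% of all genes), and 2 had an unadjusted p under 0.05, Krt19 (-1.33 ± 0.41, adjusted p = 0.772) and Krt6a (-1.36 ± 0.52, adjusted p = 0.83), both with the larger fall in WT mice. Krt5 was at -0.24 ± 0.69 and Krt14 at 0.08 ± 0.36. Each of these signs changed when some single libraries were left out, as given further on. For Krt15 the value was -1.40 ± 0.79 (adjusted p = 0.956).

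Across tumor stages no keratin was called. WT tumors of 10 against 6 weeks gave 0 of 10 with edgeR, 0 with an unadjusted p under 0.05 and 0 with DESeq2 (0.011% of all genes), and KO tumors of 12 against 8 weeks gave 0, 0 and 0 (0% of all genes). For Krt5 the KO difference was -0.98 ± 0.62 (adjusted p = 0.660), and for Krt15 it was 1.38 ± 0.73 (adjusted p = 0.640). Spread inside a group was large, as in the WT tumors of 10 weeks, where Krt5 ran from 22.3 to 432 CPM.

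How the keratins vary across libraries was taken in tumors (n = 19) and glands (n = 14) apart, over 20 correlations of log2 CPM with p from 100000 permutations, adjusted together. Genotypes and ages were pooled in each tissue with no term for group, so differences between groups enter these values. Krt8 and Krt18 went together in tumors (r = 0.988, permutation p = 1e-05, rho = 0.982, p = 1e-05, the smallest the permutations can give) and, less tightly, in glands (r = 0.813, permutation p = 0.00038, rho = 0.798, p = 0.001). Adjusted p for r were 6.67e-05 and 0.00152. Krt7 with Krt8 gave r = 0.961 in tumors (rho = 0.947, permutation p = 1e-05 for both, adjusted p = 6.67e-05) and 0.660 in glands (permutation p = 0.0108, rho = 0.644, p = 0.0152, adjusted p = 0.0216), the latter 0.442 without the 2 glands farthest from the median. Krt19 also followed Krt8 among tumors (r = 0.817, rho = 0.844, permutation p = 1e-05 for both, adjusted p = 6.67e-05), although its level against glands was lower.
Krt5 and Krt14 went together in glands (r = 0.80, permutation p = 0.00073, rho = 0.653, p = 0.0138, adjusted p = 0.00209) and remained at 0.659 without the 2 glands farthest from the median. In tumors the relation did not pass (r = 0.423, permutation p = 0.0699, rho = 0.351, p = 0.142, adjusted p = 0.108) and was 0.224 without the 2 farthest tumors; over the 15 tumors with at most 1% of ribosomal RNA, r was 0.640 (adjusted p = 0.0291). Whether the coupling differs between tumors and glands was not tested.
Krt14 with Krt17 gave r = 0.865 in glands (permutation p = 5e-05, rho = 0.763, p = 0.00223, adjusted p = 0.00025) and 0.487 in tumors (permutation p = 0.0339, rho = 0.381, p = 0.108, adjusted p = 0.0616), the latter 0.123 without 2 tumors. Krt17 and Krt6a, both known from wound edges, gave r = 0.692 in tumors (permutation p = 0.00053, rho = 0.612, p = 0.00567, adjusted p = 0.00177) and 0.485 in glands (permutation p = 0.0756, rho = 0.530, p = 0.0545, adjusted p = 0.108).
Krt23 ran against Krt8 in tumors (r = -0.671, permutation p = 0.00145, rho = -0.832, p = 6e-05, adjusted p = 0.00362, and -0.601 without 2 tumors) and gave r = -0.416 in glands (permutation p = 0.13, rho = -0.341, p = 0.233, adjusted p = 0.173). Krt5 and Krt14 showed no relation to Krt8 that passed in either tissue (r between -0.332 and 0.198). Krt17, counted as basal, went with Krt8 in tumors (r = 0.746, permutation p = 0.00022, rho = 0.709, p = 0.00109, and 0.715 without the 2 farthest tumors), with an adjusted p of 0.00172 over all 90 pairs of members and tissues, since this pair was picked after all pairs were seen. In glands Krt17 with Krt8 gave r = 0.151 (permutation p = 0.599, rho = 0.0813, p = 0.784, adjusted p = 0.729), and over the libraries with at most 1% of ribosomal RNA r was 0.727 in tumors and 0.237 in glands. Krt17 was also at 0.707 with Krt18, 0.706 with Krt7 and 0.739 with Krt19 in tumors. Krt6a, also counted as basal, gave r = 0.772 with Krt8 in glands (0.362 in tumors). Krt14 with Krt6a gave 0.820 in tumors (0.477 in glands). These further pairs were picked after all pairs were seen and are given without a test. Over the libraries with at most 1% of ribosomal RNA (15 tumors and 10 glands), r was 0.989 and 0.801 for Krt8 with Krt18, 0.965 and 0.641 for Krt7 with Krt8, 0.838 and 0.766 for Krt19 with Krt8, -0.674 and -0.04 for Krt23 with Krt8, 0.250 and 0.903 for Krt14 with Krt17, and 0.602 and 0.440 for Krt17 with Krt6a, in tumors and glands in that order. For Krt5 with Krt14 it was 0.901 in glands.

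**Figure D4:**
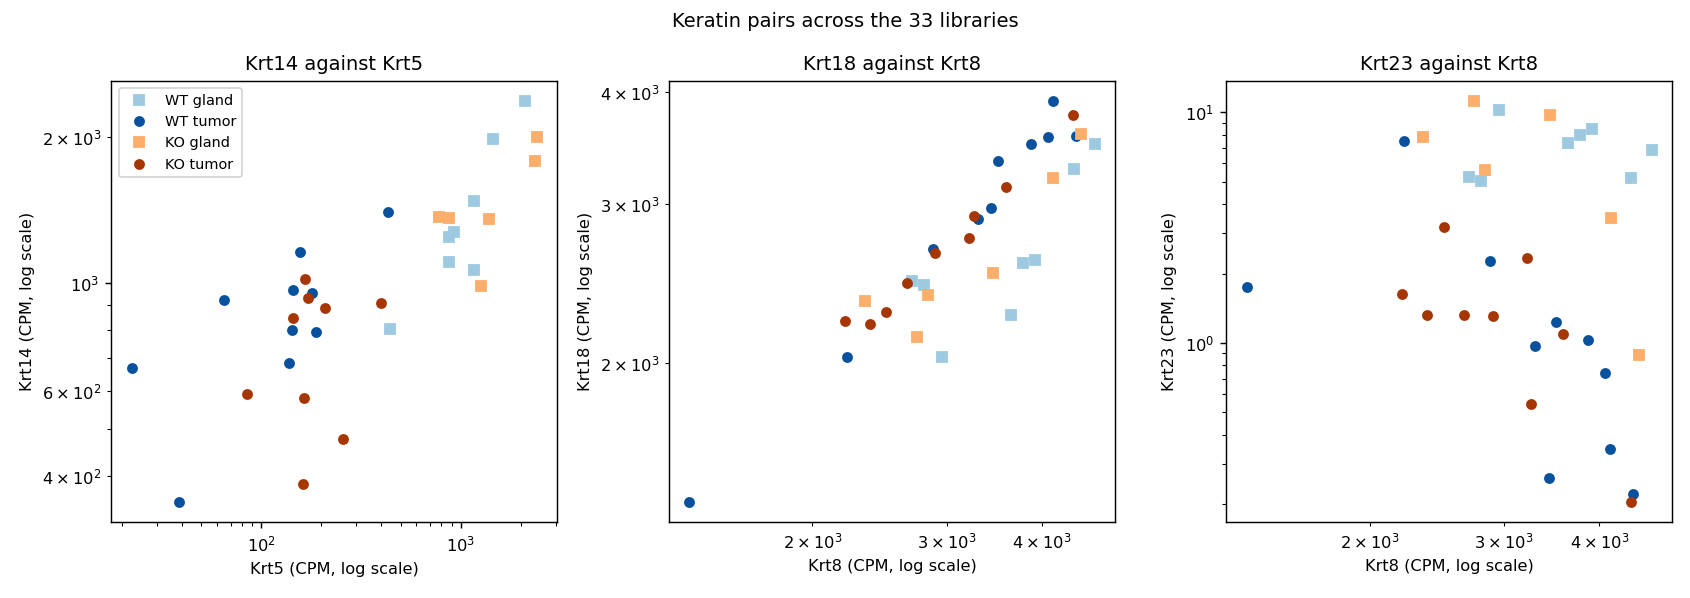
Scatter of CPM on log axes for Krt5 and Krt14, Krt8 and Krt18, and Krt8 and Krt23, with 1 point per library and the classes in separate marks. Krt8 and Krt18 fall on a narrow band in all classes, the tumors form a cloud left of the glands for Krt5 and Krt14, and among tumors Krt23 is lower where Krt8 is higher.

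Markers of the basal and myoepithelial lineage that are not keratins were lower in tumors as well. All 10 of the list were called lower in both genotypes, among them Myh11, smooth muscle myosin (-3.81 in WT and -3.35 in KO tumors), Cnn1, calponin (-3.58 and -3.10), Mylk, the myosin light chain kinase (-3.34 and -2.74), and Tagln, transgelin (-3.33 and -3.21). The list median was -2.92 in WT and -2.66 in KO mice. The list was uneven, with smaller falls of Cdh3 (-2.04 and -1.93), Snai2 (-1.90 and -1.86) and Jag2 (-0.92 and -1.15). Its summed level was 284 to 1679 CPM in WT tumors against 3001 to 13781 in WT glands and 392 to 2795 in KO tumors against 2368 to 13420 in KO glands. Trp63, the basal transcription factor that activates Krt5 and Krt14, had smaller differences (-0.997 ± 0.30 in WT and -1.03 ± 0.30 in KO tumors, edgeR adjusted p = 0.0189 and 0.0187). No gene of the list was at 0 in any library. Its part in the keratin values was not tested.

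Luminal markers that are not keratins differed from glands in both directions. Of 17, 3 were higher and 6 lower in WT tumors and 5 were higher and 5 lower in KO tumors, with list medians of -0.19 and 0.17. The higher ones in WT tumors were Elf5 (3.01), the alveolar transcription factor, Ehf (1.36) and Kit (0.89), and the lowest were Pgr (-5.47), the progesterone receptor, Foxa1 (-3.93), the pioneer factor of hormone-sensing cells, Spdef (-2.25) and Aldh1a3 (-2.03). The summed luminal level was 4153 to 4872 CPM in WT tumors and 3529 to 6253 in WT glands, and 4086 to 5315 in KO tumors and 3494 to 4428 in KO glands.

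Genes of other cell types were present in the sorted cells. Fibroblast genes summed to 909 to 4344 CPM in WT glands and 123 to 787 in WT tumors, and to 441 to 3655 in KO glands and 82.6 to 1099 in KO tumors, with 6 of 10 called lower in WT and 1 of 10, Postn, in KO tumors. Postn, the gene of periostin, made up 70.0% to 99.2% of this sum in each library. The other 9 genes summed to 15.5 to 765 CPM in WT glands and 11.8 to 147 in WT tumors, and to 12.4 to 128 in KO glands and 11.2 to 72.7 in KO tumors, with overlapping ranges, and the list median was -1.78 in WT and 0.38 in KO tumors. Endothelial genes (7 and 1 of 10 lower) summed to at most 90.4 CPM. Flt1 reached at most 52.3 CPM and Eng 30.4 in any library, against at most 4.16 for each other gene of that list. Macrophage genes (1 higher and 3 lower of 10 in WT, 3 higher in KO tumors) summed to 151 to 293 CPM in WT tumors and 62.8 to 172 in WT glands. In KO tumors their sum was 152 to 418 CPM and in KO glands 68.0 to 153. Cd14 made up most of the macrophage sum, with up to 411 CPM against at most 23.5 for any other gene of the list. It was the gene called higher in WT tumors (1.83), where Adgre1 (-2.82), Fcgr1 (-1.82) and Lyz2 (-1.39) were called lower. In KO tumors Cd14 (1.45), C1qc (4.48) and C1qb (3.07) were called higher, with C1qc at most at 1.39 CPM and C1qb at 0.808 in any library. Lymphocyte genes (2 and 1 of 10 lower) summed to at most 25.0 CPM and adipocyte genes (1 higher and 2 lower in WT, 1 higher in KO tumors) to at most 40.1. Keratinocyte genes, typical of skin, where Krt5, Krt14 and Krt17 are also expressed, summed to at most 5.12 CPM over 12 genes, 9 of which were under 1 CPM in every library, and 2 were lower in WT and 1 in KO tumors. The part of these cell types in the keratin values was not tested.

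The proteins that tie keratin filaments to junctions and to the basement membrane were lower in part. Of 15 such genes, 7 were lower and 0 higher in WT tumors, and 6 were lower and 1 higher in KO tumors, with medians of -0.54 and -0.40. The 4 with the largest differences in WT tumors were Col17a1, the collagen of hemidesmosomes (-2.73, and -2.60 in KO tumors), Pkp1, a desmosomal plakophilin (-1.61 and -1.39), Plec, plectin (-1.54 and -0.92), and Dsp, desmoplakin (-1.15 and -0.94). The higher one was Evpl, envoplakin, in KO tumors (0.64 ± 0.16, edgeR adjusted p = 0.00664), which gave -0.17 in WT tumors.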

How the data were processed

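Total RNA of sorted mammary cells was depleted of ribosomal RNA, made into strand-marked libraries and sequenced. Per the labels and the study's methods, HISAT was the authors' aligner, to GRCm38, Picard 1.128 their tool for duplicates and HTSeq their counter. Whether HTSeq used strand is not given in the sources used here, so Krt5, Krt6a, Krt7 and Krt8, which overlap genes of the opposite strand, are uncertain. The deposited raw count table was used for all values. The second deposited table, a signal made by the authors from these counts with 1 scaling factor per library, served as an alternative scaling only. Of the count table, 111 rows that name no gene (0.0778% of reads) were left out.

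A gene was tested where its reads over the 33 libraries came to 10 or more. edgeR 4.0.16 (TMM scaling, quasi-likelihood F-test, 1 coefficient per group over all libraries, R 4.3.3) gave log2 fold changes with their SE and Benjamini-Hochberg adjusted p over all genes tested, after tests on simulated data. Averages over ages weight each age equally, and the WT tumor of 12 weeks entered no fold change. CPM were scaled by TMM. Within-library ratios used raw counts and were tested with two-sided exact permutations (Python 3.11.15, scipy 1.17.1), adjusted over 18 tests with a threshold of 0.05. Correlations used log2 CPM with a prior count of 0.5. None of the 25 pairs of replicates within a group was alike within sampling noise. The members and lists were chosen with earlier results of these data known. The genes named are the 10 keratins, the 5 genes (mean over 1 CPM) most correlated with Krt5, Krt14 and Krt8 over tumors, and at most 4 called genes per list and direction with the largest WT difference. Trp63, Snai2, Jag2, Flt1, Eng, C1qb, C1qc, Evpl, Krt6b, Krt16 and Krt80 were added after their values were seen. Alternatives were DESeq2 1.42.0, its size factors, other filters, a replicate block, ribosomal RNA as a covariate, fits of single groups and leaving out libraries. Promoter sequences came from RefSeq, where 6 of the 10 members matched. RNA molecules were not tagged, so counts carry amplification error beside sampling error.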

Additional observations from a re-analysis of the deposited data

Results flagged for a closer look

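Single libraries stood apart from their class in 8 of the 76 groups of values tested, by Dixon's criterion at the 95% level, which chance meets in about 1 of 20 groups. The WT tumor of 10 weeks, replicate 1, had a log2 ratio of Krt17 to Krt14 of -1.52, the lowest of 10 WT tumors, and a log2 ratio of Krt5 and Krt14 to Krt8 and Krt18 of -0.84, the highest. It was also the WT tumor with the most Krt5 (432 CPM) and Krt14 (1402 CPM) and the least Krt8 (1379 CPM), Krt18 (1400 CPM) and Krt7 (888 CPM). Fibroblast genes other than Postn summed to 147 CPM in this library, against at most 58.8 in the other WT tumors, and their part in these values was not tested. The KO tumor of 12 weeks, replicate 1, had the lowest log2 ratio of Krt5 and Krt14 to Krt8 and Krt18 of the KO tumors (-4.19), and replicate 2 of that age had the lowest ratio of Krt17 to Krt14 (-1.01) and the highest Krt15 (0.528 CPM, from 25 reads). Krt6a was at 4.22 CPM in the WT tumor of 12 weeks, the lowest of the WT tumors. Among the KO tumors, the log2 ratio of Krt8 to Krt18 was lowest at -0.0105 in replicate 2 of 8 weeks, a library with more than 1% of ribosomal RNA. Among the KO glands, the log2 ratio of Krt7 to Krt8 was highest at -0.46 in replicate 2 of 8 weeks, also with more than 1%.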

How the results depend on the processing

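In the averaged tumor comparisons 6 or 7 of the 10 keratins were called under every alternative run. Krt18 in KO mice, not called, took the other sign with DESeq2 size factors (-0.0142), with DESeq2 (-0.0142) and with the replicate block (-0.00612). At single ages the number called in WT mice at 10 weeks was 2 when only the compared groups were fitted. In KO mice it was 2 with DESeq2, 4 without a filter, 3 with only the compared groups and 0 without the libraries over 1% of ribosomal RNA, which left 1 tumor and 1 gland, at 8 weeks, 5 without a filter and 6 with only the compared groups at 10 weeks, and 0 with only the compared groups at 12 weeks. DESeq2 called 4, 7 and 6 in WT mice at 6, 8 and 10 weeks and 4 and 6 in KO mice at 10 and 12 weeks. Without a filter 1 was called between WT and KO glands and 2 for the difference of the tumor effect. Krt5 in that last comparison changed sign to 0.15 with ribosomal RNA as a covariate. The cause was not tested. The alternatives that leave out ribosomal RNA genes or the libraries rich in them were chosen after seeing the data.

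Of the ratios, Krt7 to Krt8 in WT mice lost its call without the tumor of 12 weeks (0.22), with the adjustment over fewer KO libraries (0.22) and with the replicate block (0.19). Without the libraries over 1% of ribosomal RNA, 5 KO tumors and 2 KO glands remained, which allow no p below 0.0476 before adjustment, so a lost call there says nothing on stability; the adjusted p was 0.143 for Krt14 to Krt5 (2.26), Krt8 to Krt18 (-0.13), Krt19 to Krt8 (-1.49), Krt23 to Krt8 (-2.96) and both pairs (-2.48). No KO gland of 10 weeks remained there, so the KO average, the KO difference of 10 weeks and the difference of the tumor effect gave no value. Of the correlations, Krt14 with Krt8 in tumors changed sign (-0.027 without the tumor of 12 weeks and -0.10 without the libraries over 1%). Without the libraries over 1%, Krt5 with Krt14 in tumors gained a call (0.640). Krt7 with Krt8 in glands lost its call there (0.641, permutation test, adjusted p = 0.0818). With no change of call, Krt14 with Krt17 in tumors went from 0.487 to 0.250 and Krt23 with Krt8 in glands from -0.416 to -0.0433.

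Leaving out each library in turn gave -0.20 to 0.0817 for Krt7, -0.24 to 0.0257 for Krt8 and -0.0882 to 0.17 for Krt18 in the KO average, -0.97 to 0.33 for Krt14 in WT mice at 10 weeks and -3.00 to 0.80 for Krt23 in KO mice at 12 weeks. For the difference of the tumor effect it gave -0.87 to 0.31 for Krt5 and -0.17 to 0.48 for Krt14. The number called ran from 1 to 4, 4 to 6 and 2 to 5 in WT mice at 6, 8 and 10 weeks, from 0 to 4 and 1 to 2 in KO mice at 8 and 10 weeks, and from 0 to 1 between glands. A lone tumor or gland left in a group was assumed to vary like the others. The ratios ran from 0.15 to 0.26 for Krt7 to Krt8 in WT mice, and from -0.21 to -0.12 for Krt8 to Krt18 and -2.56 to -1.59 for Krt23 to Krt8 in KO mice. The correlations in tumors ran from 0.316 to 0.525 for Krt5 with Krt14, -0.368 to 0.033 for Krt5 with Krt15, 0.383 to 0.697 for Krt14 with Krt17 and 0.022 to 0.562 for Krt14 with Krt8, and from 0.582 to 0.786 for Krt7 with Krt8 in glands.

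Replicate numbers did not pair the samples: deviations of libraries with the same number correlated at a median of 0.029 (171 pairs, -0.674 to 0.605). With the number as a replicate block, Krt14 in WT mice was at -0.57 and lost its call on the fold change, the count of KO mice at 8 weeks was 0, and in KO mice Krt8 to Krt18 (-0.15) and Krt23 to Krt8 (-1.91) lost theirs.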

Other observations

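The other keratins of the genome were mostly low. Of 43 further keratin genes 42 were tested, and 12 were lower and 0 higher in WT tumors and 8 lower and 0 higher in KO tumors, with medians of -0.93 and -0.28. Those with the largest differences were Krt4 (-3.25 in WT and -2.36 in KO tumors), Krt90 (-2.94 and -3.00), Krt75 (-2.89 and -2.64) and Krt20 (-2.80 and -2.31). Krt80 was the one with the highest level, with medians from 58.4 CPM in WT tumors to 95.6 in KO glands, and was not called (-0.51 and -0.58). Krt6b, which shares sequence with Krt6a, gave -1.53 and -1.23, and Krt16, which shares sequence with Krt14, gave -0.96 in WT tumors, where it was called, and -0.16 in KO tumors.

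Among the 13110 genes searched (mean over 1 CPM), the 5 most like each keratin over the 19 tumors follow. Lists cut at 5 genes need not overlap, so they are no comparison of Krt5 with Krt14. For Krt5 they were Col17a1 (r = 0.943), a calcium channel gene, Cacna1g (0.913), Cdh3, the cadherin of basal cells (0.892), Trim29 (0.881) and Inka1 (0.868). For Krt14 they were Plek2 (0.893), Slc16a3, a lactate transporter (0.881), Nt5dc2 (0.872), Chsy1 (0.870) and Pkp1 (0.870). In the 14 glands the same genes gave 0.618 to 0.898 with Krt5 and 0.369 to 0.906 with Krt14. For Krt8 they were Krt18 (0.988), Rangap1 (0.967), Krt7 (0.961), Plk4, a kinase of centriole duplication (0.955), and Cdca8, a subunit of the chromosomal passenger complex (0.950). In glands r was 0.358 for Rangap1, 0.400 for Plk4 and 0.328 for Cdca8. The genes were picked for these values over tumors, so the values are a description with no test.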
